A study of Rattus norvegicus with 15 samples.

Results

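The effect of all-trans retinoic acid (RA) on gene expression after 14 days of culture was measured in H9c2 cells, by comparing the 3 RNA-seq libraries grown with RA (T14+RA) with the 3 grown without it (T14-RA). All 11574 genes of the count table entered the comparison, and these 6 libraries are 6 of the 15 in the series. The other libraries were of undifferentiated cells (T0) and of cells after 7 days without and with RA (T7-RA and T7+RA), 3 in each. H9c2 is a clonal rat myoblast line derived from embryonic heart, labelled as wild type, and both day 14 groups were kept in medium with 1% serum, which lets myoblasts leave the cell cycle and form myotubes. The T14+RA cultures received 1 µM RA every day, dissolved in DMSO, and no source used here says whether the T14-RA cultures, labelled as control, received DMSO alone. In bulk RNA, fewer cells of a type and less RNA per cell cannot be told apart.

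RA is made from vitamin A and acts through nuclear receptors, the RARs, which pair with the RXRs and sit on response elements in DNA, usually direct repeats of a short half-site with a spacer of fixed length. Cells exposed to RA raise the enzymes that remove it, chiefly the CYP26 hydroxylases and the retinal reductase Dhrs3, so these genes serve as reporters of the signal. In myoblasts, differentiation runs from the factors Myod1 and Myog through cell fusion, driven by Mymk and Mymx, to the genes of the sarcomere and of calcium release.

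Counts per library were 551209 to 823546 in T14-RA and 544558 to 1030820 in T14+RA, and a gene had a median of 146 counts over the 6 libraries together. The library pair that stood furthest apart was T14+RA replicates 2 and 3, with a chi-square of 2.04 per gene, against 1.07 for the closest pair, T14-RA replicates 1 and 3. All 6 libraries were used. Of 8 markers of cardiomyocytes, such as Nppa and Myh6, none is among the genes analysed here, while 8 of 9 markers of skeletal muscle cells are. The summed level of those 8 was 11055 to 11608 CPM (counts per 1000000 in the library, scaled by TMM) in T14-RA and 4754 to 5536 CPM in T14+RA, with no overlap, and 272 to 325 CPM at T0. That sum is mostly Myh3, Acta1 and Tnnt3, with T14-RA means of 5056, 3258 and 1932 CPM. Of the 8, 5 were called lower, while Myod1, Myog and Des were not called. Fibroblast markers, 5 of 7 in the table, summed to 28186 to 28404 CPM without RA and to 23129 to 29273 CPM with it, a sum that is mostly Col1a1. Of these 5, Dcn was called higher (log2 1.21), and Lum (-2.15) and Col3a1 (-0.53) lower. Smooth muscle and pericyte markers, 5 of 6 in the table, summed to 455 to 538 and 481 to 511 CPM, with Mcam called higher (0.69) and Actg2 lower (-0.57). Chondrocyte or osteoblast markers, 2 of 7 in the table (Sox9 and Runx2), summed to 35.6 to 49.6 CPM without RA and 14.14 to 28.0 CPM with it, with no overlap, and neither gene was called. The calls of Dcn, Lum, Mcam and Actg2 were each lost without 1 or more of the libraries. The part of these markers in the results was not tested. Of the defining markers of macrophages (6) and of adipocytes (6), none is among the genes analysed here, and the 1 endothelial marker in the table stayed under 3.2 CPM.

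With RA, 285 genes were called higher and 272 lower at day 14 by edgeR's quasi-likelihood test at an adjusted p under 0.001, which is 4.81% of the genes tested (2.46% higher and 2.35% lower). The CPM of the 2 groups did not overlap for any of the 285 genes that rose and for 271 of the 272 that fell, where 27.2% of all genes did not overlap. The changes were of similar size in both directions. The median of the called genes was a rise of 1.06 and a fall of 1.18 on the log2 scale, beside a median of 0.00 over all genes. A change of at least 2 on the log2 scale was found for 40 genes that rose and 63 that fell. The share called grew with the count, from 0.726% of the 2894 genes with the fewest counts to 12.7% of the 2894 with the most, so small changes of rarely counted genes were not detectable at this depth.

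**Figure D1:**
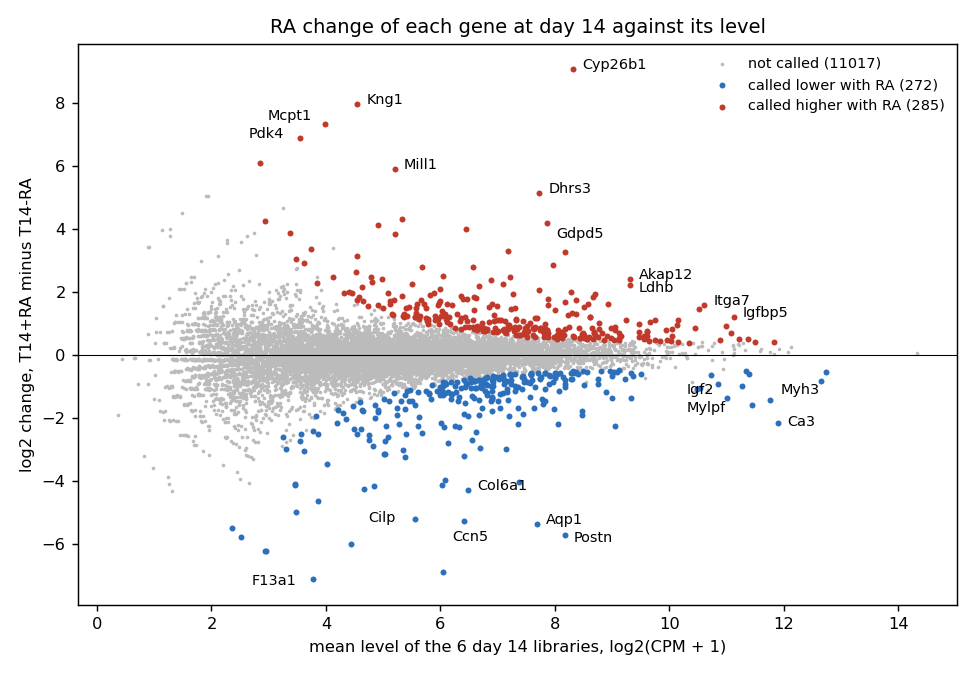
Log2 change between T14+RA and T14-RA (vertical axis) against the mean level of each gene in the 6 libraries, as log2(CPM + 1). Each point is a gene, red where called higher (285), blue where called lower (272) and grey otherwise. Changes of genes with a group at or near 0 counts, such as Kng1 and F13a1, are fitted values and not bounds.

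The genes of RA removal gave the lowest p-values of the whole comparison. Cyp26b1, the hydroxylase that degrades RA, was at 0, 0 and 3.39 CPM in the 3 T14-RA libraries and at 648, 655 and 596 CPM in the T14+RA libraries. The T14-RA libraries held 2 counts in all, which gives a ratio of 633 with an exact 95% counting interval from 175 to 5236 (adjusted p = 1.12e-35, edgeR). Its fitted fold, 533, was 330 without T14-RA replicate 1, and 3493 without T14-RA replicate 3, which held both counts, so that this last value is no bound. Dhrs3, the reductase that turns retinal back into retinol, was at 15.6, 5.31 and 11.8 CPM without RA and at 422, 432 and 377 CPM with it, a 35.1-fold difference (log2 5.13 ± 0.20 SE, adjusted p = 1.42e-31, edgeR). The libraries of both groups were far apart for both genes, and they were the 2 of 15 measured genes of retinoid metabolism and binding that were called. Rdh5, a retinol dehydrogenase, had 26.4, 14.17 and 16.9 CPM without RA and 28.9, 50.3 and 29 CPM with it, and its log2 difference of 0.83 ± 0.34 did not pass the test (adjusted p = 0.123, edgeR). Aox1, an aldehyde oxidase that can form RA, differed by -0.69 ± 0.25 (adjusted p = 0.0684, edgeR).

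Of the 19 receptors and receptor partners measured, 1 was called. This was Nr2f1, an orphan nuclear receptor also known as COUP-TFI, at 21.6, 21.2 and 27.1 CPM in T14-RA and 67.5, 81.7 and 65.3 CPM in T14+RA (log2 1.61 ± 0.26, adjusted p = 2.42e-06, edgeR). The receptors themselves were not called. Rara had a log2 difference of -0.38 ± 0.22 and Rarg of 0.36 ± 0.16, with adjusted p of 0.319 and 0.162 in edgeR, and the 2 groups overlapped for Rarg. The level of Rxra, a dimer partner, lay between 54.2 and 72.1 CPM without RA and between 33 and 56.9 CPM with it, which also overlap.

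Of 17 measured genes that are known as RA targets, 5 were called and all of these rose, with a list median of 0.46 on the log2 scale beside 0.00 for all genes. Besides Cyp26b1 and Dhrs3 they were Tgm2, Rai14 and Pdk4. Tgm2, tissue transglutaminase, was at 2.4, 8.86 and 3.39 CPM without RA and 75.2, 67.6 and 58 CPM with it (14.4-fold, and 22.8-fold without T14-RA replicate 2). Rai14, an actin-binding protein named for its induction by RA, rose from 203, 198 and 173 CPM to 481, 423 and 509 CPM, or by 1.29 ± 0.12 on the log2 scale. Pdk4, the kinase that shuts off pyruvate dehydrogenase, was at 0 in all T14-RA libraries and at 20.3, 23.6 and 19.9 CPM with RA. Set against a floor of 3 counts over the T14-RA group, it was 14.0-fold higher. Atraid, another gene named for RA, had a log2 difference of 0.42 ± 0.12 that did not pass the threshold (adjusted p = 0.016, edgeR), although its libraries did not overlap.

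Promoter windows of 300 bases, 250 before and 50 after each annotated start, were taken from RefSeq (build GRCr8, which is not the build of the counts) and matched by symbol for 8608 gene symbols of the table. They were searched on both strands for direct repeats of a half-site, with spacers of 1, 2 or 5 bases (DR1, DR2 and DR5). Each copy of the half-site was AGGTCA or AGTTCA, the same with G as first base (GGGTCA) or with both changes (GGTTCA). The copies in a match could be of unlike forms, as in the match below. Among all 33469 windows, 0.233% held a DR1, 0.17% a DR2 and 0.382% a DR5, and among those of the 8608 table genes 0.256%, 0.0929% and 0.0465% did. Of the 210 genes that rose and have a window, 1 held any of these repeats, and of the 212 that fell none did. The 1 match was a DR2 in Gadd45a, a stress-response gene that restrains the cell cycle, which was at 192, 179 and 191 CPM without RA and 489, 605 and 517 CPM with it (log2 1.51 ± 0.12, adjusted p = 3e-16, edgeR). The windows of Gadd45a (chr4:97486750-97487049, minus strand) and of Cyp26b1 (chr4:118616127-118616426, minus strand) are shown because the former holds the match and the latter belongs to the gene with the lowest p. Capitals mark the DR2, whose first base lies 98 bases before the start. On the other strand it reads AGGTCA, the spacer TT and GGGTCA, so its copies differ in their first base. No match says only that these letters are not in the window.
Gadd45a: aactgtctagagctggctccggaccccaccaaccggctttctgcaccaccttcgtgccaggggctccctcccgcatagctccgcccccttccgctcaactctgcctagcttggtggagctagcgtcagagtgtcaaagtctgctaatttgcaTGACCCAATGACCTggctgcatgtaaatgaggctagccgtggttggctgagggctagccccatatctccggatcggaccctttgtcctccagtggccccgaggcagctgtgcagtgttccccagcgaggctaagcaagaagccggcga
Cyp26b1: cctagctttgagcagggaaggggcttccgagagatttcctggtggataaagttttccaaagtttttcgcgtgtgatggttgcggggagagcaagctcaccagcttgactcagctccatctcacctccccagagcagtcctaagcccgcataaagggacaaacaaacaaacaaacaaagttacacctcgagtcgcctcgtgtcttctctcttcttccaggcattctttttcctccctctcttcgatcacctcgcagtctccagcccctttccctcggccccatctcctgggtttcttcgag

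Most of the other large rises were of genes at or near 0 without RA. Kng1, which encodes kininogen, was at 0 in every T14-RA library and at 51.1, 50.3 and 32.6 CPM with RA. It was 30.7-fold higher against the floor of 3 counts over the group. Mcpt1, a mast cell protease, was at 0 without RA and at 27, 31.4 and 30.8 CPM with it, 19.4-fold higher against the same floor. Mill1, a relative of MHC class I, had 2 counts in T14-RA and 157 in T14+RA, a ratio of 70.1 with an exact 95% counting interval from 19.1 to 584. Kininogen genes and mast cell proteases, belong to families of close copies, so reads could be split between members. Mcpt8l2, another of the proteases, was at 7.21, 0 and 0 CPM without RA and at 47.3, 56.6 and 63.5 CPM with it (17.3-fold higher), so that its fold rests on the counts of T14-RA replicate 1. Mgp, matrix Gla protein, which hinders calcification, rose from 2.4, 8.86 and 0 CPM to 65.6, 102 and 56.2 CPM (20.1-fold, and 47.1-fold without T14-RA replicate 2). Sema7a, a membrane-anchored semaphorin, had 1 count in T14-RA and 29 in T14+RA, a ratio of 25.9 with a counting interval from 4.3 to 1058. Its fitted fold, 19.1, was 12.5 without T14-RA replicate 1 and 72.3 without T14-RA replicate 3, which held the count. Its call was lost without T14-RA replicate 1, T14-RA replicate 2 or T14+RA replicate 1, with adjusted p of 0.00555, 0.00164 and 0.00198 in edgeR. Foxa1, a pioneer transcription factor that was looked up after its values were seen, was at 0 without RA and at 10.6, 14.14 and 12.7 CPM with it. It was 8.04-fold higher against the floor, and lost its call without T14-RA replicate 1 or T14-RA replicate 3 (adjusted p 0.00247 and 0.00107, edgeR).

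Among genes with more counts, 3 further rises had very low p-values. Gdpd5, a glycerophosphodiesterase of the plasma membrane, was at 25.2, 19.5 and 27.1 CPM without RA and 425, 453 and 437 CPM with it, an 18.01-fold difference (adjusted p = 3e-31, edgeR). Akap12, a scaffold for protein kinase A, rose from 243, 161 and 193 CPM to 1146, 981 and 1075 CPM (5.29-fold). Ldhb, the lactate dehydrogenase subunit typical of heart, rose from 223, 218 and 230 CPM to 1026, 1146 and 963 CPM (4.67-fold). In each of these 3 genes the T14+RA library with the lowest level was several times above the highest T14-RA library.

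**Figure D2:**
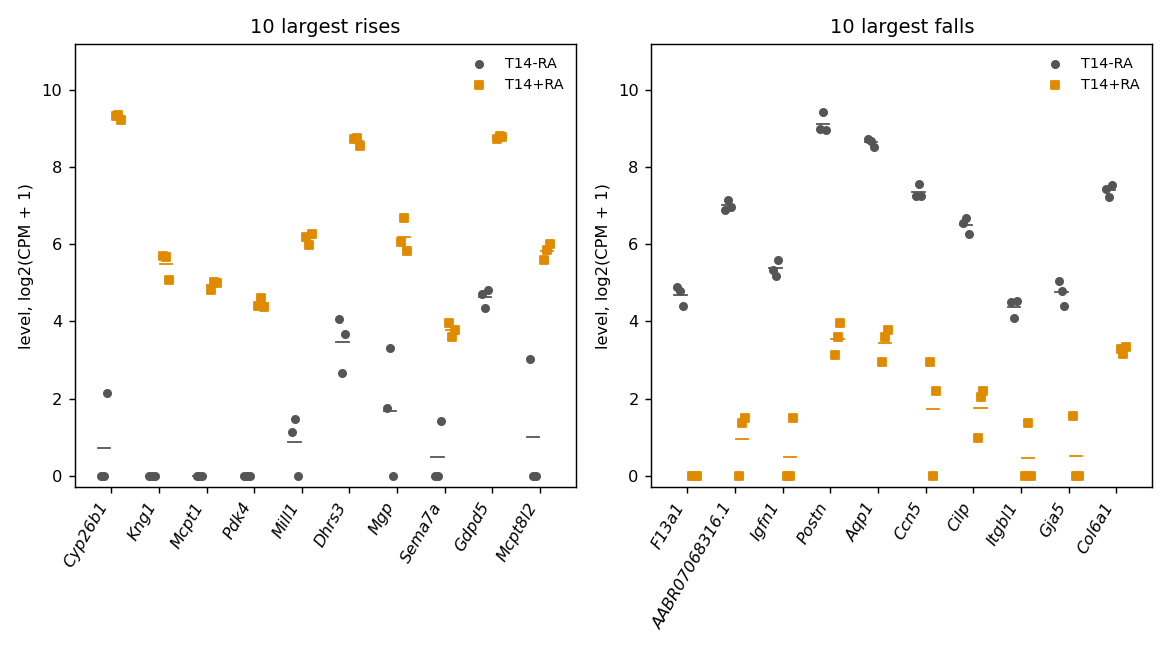
Level in each library, as log2(CPM + 1), of the 10 genes with the largest rises and the 10 with the largest falls among called genes with at least 30 counts over the 6 libraries. Grey circles are the 3 T14-RA libraries, orange squares the 3 T14+RA libraries and short lines their means. The genes were chosen among those whose groups do not overlap.

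The largest falls included several genes of the extracellular matrix and of membranes. Postn, periostin, a matrix protein of healing and fibrosis, was at 507, 685 and 496 CPM in T14-RA and at 7.72, 11 and 14.5 CPM in T14+RA (53.1-fold lower). Aqp1, a water channel, fell from 426, 407 and 371 CPM to 6.75, 11 and 12.7 CPM, and had the lowest p of the genes that fell (log2 -5.38 ± 0.21, adjusted p = 3e-31, edgeR). Ccn5, a CCN family matrix protein that lacks the domain binding heparin, was at 151, 190 and 151 CPM without RA and at 6.75, 0 and 3.63 CPM with it (38.7-fold lower, and 87.0-fold without T14+RA replicate 1). Cilp, a cartilage matrix protein, was 36.9-fold lower, and Olfml2b, an olfactomedin-like secreted protein, 16.6-fold lower. F13a1, the catalytic chain of coagulation factor XIII, was at 28.8, 26.6 and 20.3 CPM without RA and at 0 in each T14+RA library. It was 19.03-fold lower against the floor of 3 counts over the group. Gja5, the gap junction protein connexin 40, had 54 counts without RA and 2 with it, a ratio of 30.2 with a counting interval from 7.97 to 256. Itgbl1, an integrin-beta-like protein, had 40 and 1, a ratio of 44.8 with an interval from 7.59 to 1812, and was not called by DESeq2 (adjusted p = 0.00177). Igfn1, an immunoglobulin-domain protein of muscle, had 81 and 1, a ratio of 90.7 with an interval from 15.8 to 3624. AABR07068316.1, which the deposited annotation lists without a gene symbol of its own, had 253 and 2, a ratio of 142 with an interval from 38.8 to 1175. The fitted folds of these 4 genes moved with single libraries. Without T14+RA replicate 1 they went from 25.2 to 143 for Gja5, from 31.8 to 19.6 for Itgbl1, from 64.5 to 39.7 for Igfn1 and from 118 to 68.4 for AABR07068316.1. Itgbl1 reached 111 without T14+RA replicate 2 and Igfn1 227 without T14+RA replicate 3. Where the group left was at 0 these values are no bounds.

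Genes of the muscle contractile apparatus gave the largest number of falls in any 1 list. Of 25 measured genes of the thick and thin filaments, 13 were called lower and 0 higher, and the list median was -0.98 on the log2 scale. With any 1 of the 6 libraries left out, 12 or 13 were called lower, while limma on quantile-normalized values called 6. Myh3, the embryonic myosin heavy chain, was at 4937, 5021 and 5209 CPM in T14-RA and at 1747, 1757 and 2119 CPM in T14+RA (2.70-fold lower, adjusted p = 1.45e-19, edgeR). Mylpf, the fast myosin regulatory light chain, fell from 4142, 4302 and 4072 CPM to 1212, 1509 and 1459 CPM (3.00-fold). Actc1, cardiac alpha-actin, which embryonic skeletal muscle also makes, was at 239, 234 and 276 CPM without RA and at 19.3, 47.1 and 32.6 CPM with it (7.99-fold lower). The libraries were apart in all 3 genes. Acta1, skeletal alpha-actin, fell by 0.98 ± 0.10 on the log2 scale, from 3375, 3084 and 3314 CPM to 1453, 1748 and 1764 CPM. The actin genes are near-identical in their coding parts, and Myh3 and Myh4 lie in one cluster of myosin genes, so their reads could in part be shared.

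The rest of the 13 spanned a wide range. Mybpc1, slow myosin-binding protein C, fell most, from 49.2, 54.9 and 52.5 CPM to 0.965, 7.86 and 0 CPM (18.02-fold, but 11.9-fold without T14+RA replicate 1 and 64.1-fold without T14+RA replicate 2). Myh4, the myosin heavy chain of the fastest fibres, was at 491, 351 and 461 CPM without RA and at 82, 92.7 and 120 CPM with it (4.56-fold lower). Myl4, Myl1, Lmod3, Tnni2, Tnnt3, Tpm2 and Tnni1 were lower by 0.62 to 1.91 on the log2 scale, and Tnni1 lost its call without T14+RA replicate 1 (adjusted p = 0.00158, edgeR). The troponins were not alike. Tnnt3 and Tnni2, fast troponins T and I, were 2.11-fold and 2.21-fold lower, whereas Tnnc2, fast troponin C, was at 1050, 1050 and 969 CPM without RA and 968, 1235 and 1032 CPM with it, an overlap of the groups (log2 difference 0.07 ± 0.10). Tnnc1, the slow and cardiac troponin C, had a log2 difference of 0.33 ± 0.13 (adjusted p = 0.125, edgeR), and Tnnt2, cardiac troponin T, of -0.26 ± 0.10 (adjusted p = 0.0846, edgeR).

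The promoter windows of 11 of these 13 genes were available. They were searched for the CArG box, which serum response factor binds (CC, 6 bases that are A or T, and GG), and for CAGCTG, an E-box form bound by Myod1 and Myog. A CArG box was found in 3 of the 11 genes, against 1.64% of all windows and 1.45% for the table genes. The share was 3.3% for all genes that fell and 1.9% for those that rose. Filament genes that were not called lower were not counted as a set, so these shares do not tell the called ones from other filament genes. CAGCTG was found in 5 of the 11, against 15.1% of all windows, 16.2% for the table genes, 27.8% for the genes that fell and 20.5% for those that rose. The windows with the CArG box are shown, from Acta1 (chr19:68784145-68784444, minus strand), Actc1 (chr3:121271778-121272077, minus strand) and Myh4 (chr10:52421898-52422197, plus strand), with the box in capitals. It begins 94 bases before the start in Acta1 and 118 before it in Myh4, and just after the annotated start in Actc1. A match is a description and not a shown binding site.
Acta1: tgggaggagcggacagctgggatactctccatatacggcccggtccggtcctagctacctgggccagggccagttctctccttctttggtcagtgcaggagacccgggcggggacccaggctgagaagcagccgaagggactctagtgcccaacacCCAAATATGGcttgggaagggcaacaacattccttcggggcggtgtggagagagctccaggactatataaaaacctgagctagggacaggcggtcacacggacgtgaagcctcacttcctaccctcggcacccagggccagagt
Actc1: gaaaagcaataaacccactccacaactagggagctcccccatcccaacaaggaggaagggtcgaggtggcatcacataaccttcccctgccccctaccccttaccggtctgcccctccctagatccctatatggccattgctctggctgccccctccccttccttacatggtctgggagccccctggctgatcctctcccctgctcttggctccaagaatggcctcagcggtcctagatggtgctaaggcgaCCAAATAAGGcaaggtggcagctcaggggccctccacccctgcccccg
Myh4: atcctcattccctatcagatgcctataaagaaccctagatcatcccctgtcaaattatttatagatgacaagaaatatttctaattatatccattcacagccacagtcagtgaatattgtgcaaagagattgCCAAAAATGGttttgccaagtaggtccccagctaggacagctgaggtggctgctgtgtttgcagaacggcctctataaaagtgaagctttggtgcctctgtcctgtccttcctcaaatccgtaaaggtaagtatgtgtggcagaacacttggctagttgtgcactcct

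Myomaker and myomixer, which drive fusion, fell, while Myod1 and Myog were not called. Mymk, myomaker, was at 128, 112 and 130 CPM in T14-RA and at 19.3, 31.4 and 29 CPM in T14+RA (4.85-fold lower, adjusted p = 5.05e-13, edgeR). Mymx, myomixer, fell from 46.9, 54.9 and 33.9 CPM to 13.5, 12.6 and 5.44 CPM (4.01-fold). Of the 14 fusion genes measured, 2 rose, the adhesion molecules Ncam1 (1.69-fold) and Kirrel1 (1.79-fold), and these 2 fell. Myog was at 639, 645 and 632 CPM without RA and at 540, 621 and 548 CPM with it, a log2 difference of -0.17 ± 0.10 (adjusted p = 0.367, edgeR). Myod1 overlapped between the groups, with a log2 difference of -0.28 ± 0.20. Of 22 myogenic factors measured, 1 was higher and 2 lower. Mef2a, a MADS-box factor of muscle genes, fell 2.22-fold and Mef2c 2.02-fold. Mef2c lost its call without T14-RA replicate 1, T14+RA replicate 1 or T14+RA replicate 2, with adjusted p of 0.00117, 0.00402 and 0.001004 in edgeR.

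The genes of the Z-disc and M-band, which anchor the filaments, were called lower for 9 of 38 and higher for 2, with a list median of -0.30. Hspb7, a small heat shock protein of muscle, was at 101, 140 and 125 CPM without RA and at 8.68, 4.71 and 5.44 CPM with it (17.5-fold lower). Myom2, a myomesin of the M-band, fell 4.58-fold, Actn2, alpha-actinin, 5.14-fold, and Klhl41, a kelch protein that stabilises the thin filament, 2.59-fold. The related ubiquitin ligases Trim54 and Trim55 moved apart. Trim54 fell from 121, 135 and 108 CPM to 17.4, 14.14 and 19.9 CPM (7.04-fold), and Trim55 rose from 122, 119 and 112 CPM to 383, 347 and 330 CPM (3.01-fold). Fhl2, a LIM-domain protein of heart, rose 2.92-fold. Des, desmin, overlapped, with a log2 difference of -0.05 ± 0.27.

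Of 39 measured genes of excitation-contraction coupling, which turns the action potential into calcium release, 9 were lower and 1 higher, and the list median was -0.24. With 1 library left out 6 to 8 were lower, and limma on quantile-normalized values called 3 lower. Cacng1, the gamma subunit of the skeletal calcium channel, was at 49.2, 46 and 44 CPM without RA and at 1.93, 1.57 and 3.63 CPM with it (19.2-fold lower). Casq1, the calcium buffer of fast fibres, fell from 165, 168 and 164 CPM to 32.8, 26.7 and 29 CPM (5.49-fold). Ryr1, the calcium release channel, fell from 347, 269 and 374 CPM to 134, 86.4 and 138 CPM (2.75-fold). The groups did not overlap for any of these genes. Stac3, an adaptor of the channel complex, was 6.18-fold lower and Sln, an inhibitor of the calcium pump, 4.84-fold lower (7.52-fold without T14+RA replicate 2). Ryr2, a release channel that the paper measured by qPCR, is not among the genes analysed here. Casq2, the calcium buffer of heart, was not called, nor were Atp2a2 and Cacna1c. Casq2 had a log2 difference of -0.26 ± 0.10 (adjusted p = 0.0872, edgeR), Atp2a2, the calcium pump, of 0.29 ± 0.09 (adjusted p = 0.0218, edgeR) and Cacna1c, the cardiac calcium channel, of 0.32 ± 0.17 (adjusted p = 0.281, edgeR). Cacna1s, the skeletal channel, overlapped, with a log2 difference of -0.61 ± 0.28. Fkbp1a, a protein that binds the release channel, rose 1.77-fold.

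At the nerve-muscle junction, Chrna1, the acetylcholine receptor subunit, fell from 151, 182 and 146 CPM to 15.4, 25.1 and 38.1 CPM (6.53-fold), 1 of 2 genes called lower among 14 (1 without T14+RA replicate 2). Of the 19 dystrophin complex genes, edgeR called 2 higher and 0 lower, with a median of 0.04, and limma on quantile-normalized values 0 higher and 1 lower. With 1 library left out, edgeR called between 0 and 2 higher, and 0 without T14-RA replicate 2. Some single genes of muscle outside these lists were also lower, others not. Ca3, the abundant carbonic anhydrase of slow muscle, was at 6191, 6371 and 6184 CPM without RA and at 1460, 1421 and 1300 CPM with it (4.48-fold lower, adjusted p = 3.66e-30, edgeR). Mb, myoglobin, fell from 136, 190 and 130 CPM to 16.4, 15.7 and 16.3 CPM (9.23-fold), and Ckmt2, mitochondrial creatine kinase, 4.88-fold, and these were picked after their values were seen. Of glycolytic enzymes, the muscle forms Pgam2 and Eno3 fell 4.84-fold and 2.05-fold. Ckm, the cytosolic creatine kinase of muscle, also looked up afterwards, overlapped between the groups, with a log2 difference of 0.15 ± 0.24.

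**Figure D3:**
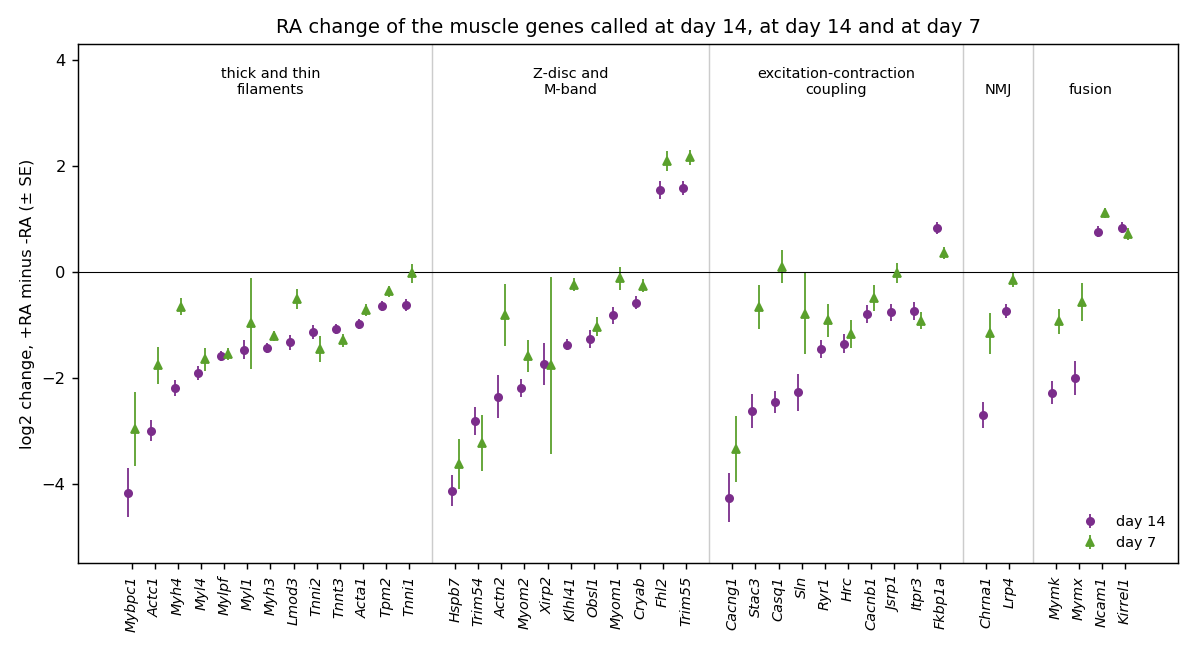
Log2 change with RA (± SE) of the members of 5 muscle gene lists that were called at day 14, at day 14 (purple circles) and at day 7 (green triangles). NMJ is the neuromuscular junction. At day 14 the changes ran from -4.27 for Cacng1 to 1.59 for Trim55.

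Of 25 contractile genes of smooth muscle, 4 were higher and 5 lower, with a median of -0.05. Itga8, an integrin of smooth muscle and stroma, rose 3.56-fold and Mylk, myosin light chain kinase, 1.83-fold, while Smtn, smoothelin, fell 2.61-fold. Acta2, smooth muscle actin, rose by 0.39 ± 0.09 on the log2 scale with an adjusted p of 9.35e-04 in edgeR, close to the threshold, and lost the call without any of 5 libraries (all but T14+RA replicate 3), with adjusted p from 0.00594 to 0.0146. Of 11 genes of caveolae, 6 were lower and 1 higher, with a median of -0.63, and 3 were lower without T14-RA replicate 1, T14-RA replicate 3 or T14+RA replicate 1. Cav1, the main coat protein, fell from 314, 308 and 296 CPM to 136, 146 and 156 CPM (2.11-fold), and Cavin1, an adaptor of the coat, 1.60-fold. The annexin and S100 calcium-binding proteins were called lower for 5 of 16 and higher for 2. S100a4, known for motility of fibroblasts and tumour cells, was at 906, 972 and 757 CPM without RA and at 178, 200 and 172 CPM with it (4.80-fold lower). Anxa1, an anti-inflammatory annexin, rose 2.16-fold.

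In the extracellular matrix, genes moved in both directions. Of 33 collagens and collagen-modifying enzymes, 6 were higher and 5 lower, with a median of 0.10. Col11a1, a minor fibrillar collagen, rose from 107, 128 and 144 CPM to 590, 413 and 468 CPM (3.97-fold), and Loxl2, a cross-linking oxidase, 3.21-fold. Col3a1, a main fibrillar collagen, fell by 0.53 ± 0.08 on the log2 scale, from 7920, 8248 and 7928 CPM to 5986, 5820 and 4828 CPM, but differed by 0.07 in limma on quantile-normalized values. The chains of collagen VI, which form beaded filaments around muscle cells, gave a much larger change. Col6a1 was at 172, 149 and 186 CPM without RA and at 8.68, 7.86 and 9.06 CPM with it (19.4-fold lower, adjusted p = 1.35e-22, edgeR). Col6a2, its neighbour on the chromosome, fell from 180, 191 and 168 CPM to 14.5, 29.9 and 29 CPM (7.86-fold). Both measured chains were thus far below every T14-RA library.

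Of 27 matricellular proteins and proteoglycans, 9 were lower and 4 higher, with a median of -0.19, and 2 to 4 were higher with 1 library left out (2 without T14-RA replicate 3 or T14+RA replicate 2). The number lower was then 7 to 8, and it was 2 with limma on quantile-normalized values. Besides Postn and Ccn5, Fmod, fibromodulin, which binds collagen, fell 3.29-fold and Thbs2, a thrombospondin that limits vessel growth, 3.22-fold. Spp1, osteopontin, rose from 48, 42.5 and 44 CPM to 246, 255 and 252 CPM (5.52-fold), and Tnc, tenascin C, 2.45-fold. Elastic fibre genes were lower for 4 and higher for 2 of 15. Eln, elastin, fell from 646, 705 and 638 CPM to 323, 327 and 221 CPM (2.25-fold), whereas Ltbp1, which holds latent TGF-beta in the matrix, rose 2.16-fold. Of 29 proteases and inhibitors, 7 were lower and 2 higher. Mmp2, gelatinase A, fell 3.65-fold and Adamts1 2.99-fold, and the proteases Adamts9 and Adamts7 rose 3.61-fold and 3.01-fold.

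Of 19 measured integrins and related genes, the receptors for this matrix, 7 were called higher, 1 lower and 11 not, with a median of 0.23. The number called higher was 7 with any 1 library left out, while limma on quantile-normalized values called 2. Itga7, the laminin receptor of muscle, was at 804, 744 and 799 CPM without RA and at 2399, 2340 and 2272 CPM with it (2.99-fold higher). Itgb1, its partner chain, rose from 1757, 1628 and 1621 CPM to 2645, 2515 and 2846 CPM (1.60-fold). Itgax, known from dendritic cells and macrophages, rose from 16.8, 1.77 and 8.47 CPM to 157, 156 and 180 CPM (16.1-fold, and 30.3-fold without T14-RA replicate 1), and no defining macrophage marker is among the genes analysed here. It has close relatives in the same family, between which reads could be shared. The 1 member that fell, Itgbl1, is not itself a receptor chain. Of 17 laminins and basement membrane genes, 1 was higher and 2 lower, but 0 were higher without T14-RA replicate 1 or 3 or T14+RA replicate 1 or 2, and 1 was lower without T14-RA replicate 1 or T14+RA replicate 1.

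Among the signalling lists, of 29 TGF-beta pathway genes, 6 were higher and 1 lower, although the list median was -0.07. With 1 library left out 4 to 5 were higher, and limma on quantile-normalized values called 2 higher. The ligands Tgfb2 and Tgfb3 rose 1.85-fold and 2.29-fold, and Pmepa1, a feedback inhibitor, from 93.7, 93.9 and 59.3 CPM to 240, 255 and 198 CPM (2.79-fold), while Fst, follistatin, which binds activins, fell 2.89-fold. Of 16 Notch genes, 3 were lower and 0 higher, with a median of -0.38. The receptor Notch3 fell from 84.1, 69.1 and 59.3 CPM to 15.4, 11 and 9.06 CPM (5.67-fold), Notch1 2.55-fold and the ligand Jag1 2.24-fold, and Jag1 lost its call without T14-RA replicate 2, T14-RA replicate 3, T14+RA replicate 1 or T14+RA replicate 3 (adjusted p from 0.00106 to 0.00294, edgeR). The Wnt inhibitors moved in opposite directions, the only 2 of 26 Wnt genes called. Sfrp4, a secreted Frizzled-related protein, rose from 14.4, 10.6 and 11.8 CPM to 83, 78.6 and 103 CPM (6.89-fold), and Wif1 fell from 57.7, 58.5 and 54.2 CPM to 6.75, 4.71 and 7.25 CPM (8.81-fold). Of 21 genes of the BMP pathway, 1 was called, Crim1, which holds BMPs at the cell surface (2.00-fold higher). Of 22 targets of YAP and TEAD, 4 were higher and 1 lower.

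In the insulin-like growth factor system, 4 of 20 genes were higher and 3 lower. Igf2, the growth factor that myotubes secrete, was at 2928, 2954 and 2985 CPM without RA and at 1236, 1092 and 1100 CPM with it (2.58-fold lower, adjusted p = 2.01e-19, edgeR). Igfbp5, the binding protein typical of differentiating muscle, rose from 1392, 1199 and 1461 CPM to 3013, 2722 and 3599 CPM (2.30-fold), and Igfbp4 fell 1.91-fold. Irs1 and Pik3r1, which relay the receptor's signal, rose 2.88-fold and 3.01-fold. Of 26 other growth factors and receptors of the PDGF, FGF and VEGF kind, 2 were higher, Vegfa (1.87-fold) and Vegfc (3.36-fold), and 2 were lower, with 0 or 1 lower when any library was left out. Aqp1 was 1 of 3 lower among 22 aquaporins and ion channels, and the count fell to 1 without T14-RA replicate 1 or T14-RA replicate 3.

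None of the 46 DNA replication genes or 50 genes of mitosis was called by edgeR at an adjusted p under 0.001, and 3 and 4 were lower at 0.05, where 5.74% of all genes were lower. Their list medians were -0.33 and -0.39, with 35 and 43 members below 0. Mki67, the proliferation marker, was at 203, 198 and 198 CPM without RA and at 151, 105 and 198 CPM with it, so that T14+RA replicate 3 reached the T14-RA levels (log2 difference -0.41 ± 0.19). Of 30 cyclins and cell cycle inhibitors, 1 was higher, Gadd45a, and 2 lower, and the 2 were reduced to 0 or 1 by leaving out any library. Ccnd1, cyclin D1, overlapped between the groups, with a log2 difference of -0.06 ± 0.09, and Cdkn1a, the inhibitor p21, differed by -0.20 ± 0.11 (adjusted p = 0.315, edgeR). Of 26 homeobox factors, 1 was higher and 1 lower, the latter being Prrx2, a factor of mesenchyme (3.94-fold).

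Of 51 genes of fatty acid oxidation and the citrate cycle, 6 were higher and 0 lower, with a median of 0.26. Pdk3, a relative of Pdk4, rose from 32.4, 35.4 and 44 CPM to 117, 121 and 147 CPM (3.43-fold), and Hadhb, a chain of the trifunctional protein of beta-oxidation, 1.66-fold. Cpt1a, which admits fatty acids to mitochondria, had a log2 difference of 0.44 ± 0.15 (adjusted p = 0.0374, edgeR), and Ucp2, an uncoupling protein, of 0.69 ± 0.17 (adjusted p = 0.00173, edgeR). Of 73 respiratory chain genes, 60 were above 0 with a median of 0.21, but 2 were called higher and 1 lower, a share near that of all genes, and 1 was higher without any of 5 libraries (all but T14+RA replicate 2). The 1 that fell, Cox8b, is the muscle form of a cytochrome oxidase subunit (2.40-fold lower). Of 35 genes of glycolysis and glycogen, 4 were higher and 3 lower. Hk2, the muscle hexokinase, rose 2.38-fold, and Sord, sorbitol dehydrogenase, from 263, 228 and 225 CPM to 742, 787 and 656 CPM (3.03-fold). Spats2l, a stress granule protein, fell 1.83-fold, and lost its call without T14-RA replicate 2, T14-RA replicate 3, T14+RA replicate 1 or T14+RA replicate 3 (adjusted p from 0.00134 to 0.00492, edgeR).

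Cholesterol and fatty acid synthesis had 7 genes lower and 3 higher of 39, with a median of -0.38, but only 2 to 4 were lower once a library was left out. Cyp51, a demethylase of cholesterol synthesis, fell by 0.54 on the log2 scale, whereas Scd, the desaturase that makes oleate, rose from 590, 466 and 528 CPM to 1019, 1048 and 1196 CPM (2.05-fold). Lysosomal hydrolases and their partners were higher for 9 and lower for 0 of 34, with a median of 0.34, and the count was 5 to 9 with 1 library left out, lowest without T14-RA replicate 3 or T14+RA replicate 1. Lipa, the lysosomal acid lipase, rose from 175, 165 and 174 CPM to 630, 677 and 667 CPM (3.82-fold), Grn, progranulin, 1.77-fold and Ctsd, cathepsin D, 1.40-fold. Of 40 genes of protein folding in the endoplasmic reticulum and of amino acid stress, 7 were higher and 0 lower, and 1 to 6 were higher with 1 library left out (1 without T14-RA replicate 3 or T14+RA replicate 1). Vldlr, a lipoprotein receptor, rose 2.29-fold. Of 36 antioxidant genes under NRF2, 4 were higher (2 without any of 5 libraries, all but T14+RA replicate 3) and 1 lower, with Gstp1, a glutathione transferase, 1.95-fold higher and Nqo1, a quinone reductase, 2.25-fold lower. Of 30 interferon and MHC class I genes, 2 were higher, and 0 to 2 with 1 library left out. No gene of 74 cytosolic ribosomal proteins or 31 proteasome subunits was called by edgeR at 0.001, and at 0.05 the counts were 0 and 2, both of the latter higher, where 5.42% of all genes were higher.

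**Figure D4:**
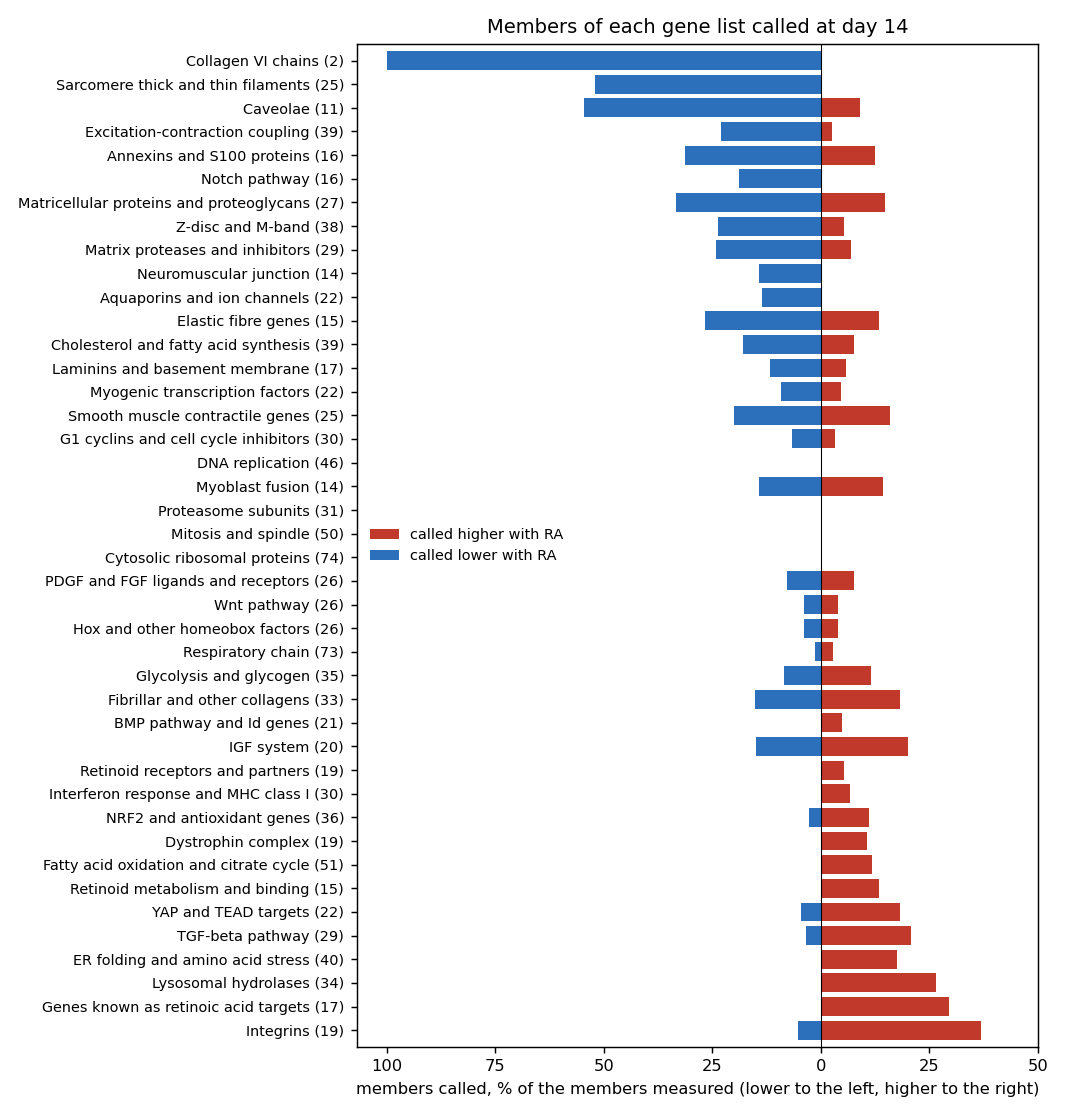
Share of the measured members of each of 42 gene lists that was called higher (red, to the right) or lower (blue, to the left) with RA at day 14, with the number measured in brackets. Over all genes 2.46% were called higher and 2.35% lower. The share called grew with the count, to 12.7% in either direction for the 2894 genes with the most counts (337 or more). Median counts over the 6 libraries were 1393 in the filament list and 381 in the integrin list. The thick and thin filament list had 52% of its 25 members lower and the integrin list 36.8% of its 19 higher.

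Most of the called genes, 352 of 557, were in none of the lists. Among them, chosen after their values were seen, were the neighbouring genes Duox1, Duox2 and Duoxa1, which encode oxidases that make hydrogen peroxide and a maturation factor. Duox1 was at 68.5, 86.8 and 91.4 CPM without RA and at 339, 338 and 334 CPM with it (4.15-fold higher). Duox2 rose 3.87-fold (5.94-fold without T14-RA replicate 2) and Duoxa1 4.70-fold (7.54-fold without T14-RA replicate 1), and reads of overlapping neighbours may not be fully separable. Cp, ceruloplasmin, a copper carrier, rose from 70.9, 49.6 and 57.6 CPM to 424, 412 and 473 CPM (7.16-fold). Klf4, a zinc finger factor of differentiating epithelium and muscle wall, fell from 64.9, 65.5 and 81.3 CPM to 8.68, 9.43 and 7.25 CPM (8.07-fold).

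The day 7 libraries, none of which is shared with the day 14 comparison, were used to see which of these changes differed between the days. At day 7, 367 genes were called (3.17%). Of the genes called at day 14, 131 that rose and 115 that fell were also called in that direction at day 7, 0 of those that rose were called the opposite way, and 1 of those that fell was. The difference between the days, tested in the same fit, was called for 86 genes at an adjusted p under 0.05 (0.743%), among them 30 that rose and 24 that fell at day 14. The other 32 were not called at day 14.

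Several muscle genes were among those that differed. Ca3 fell by 2.16 on the log2 scale at day 14 and differed by -0.22 at day 7 (difference -1.94 ± 0.12 SE, adjusted p = 1.65e-19, edgeR). Casq1 differed by -2.46 and 0.10, Mb by -3.21 and 0.25, Pgam2 by -2.27 and 0.65, and Klhl41 by -1.37 and -0.24 at days 14 and 7. The difference of Pgam2 did not pass without T14+RA replicate 1 (adjusted p = 0.0596, edgeR). Of the 25 filament genes, 2 had a called difference, Myh4 with changes of -2.19 and -0.66 and Mybph, a myosin-binding protein, with -0.43 and 0.40. The filament genes Myh3 and Mylpf had -1.43 and -1.21 and -1.59 and -1.55, and their differences did not pass the test. Nid2, a basement membrane linker, was the 1 gene called in opposite directions, lower at day 14 (208, 179 and 190 against 88.8, 78.6 and 111 CPM) and higher at day 7 (log2 -1.07 and 1.03). Igf2 had changes of -1.37 at day 14 and -0.41 at day 7.

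Some of the other genes with a called difference were higher with RA at day 14. Igfbp5 changed by 1.20 and -0.39, Scd by 1.03 and -0.46, and Clu, clusterin, a secreted chaperone, by 1.10 and -0.22 on the log2 scale at days 14 and 7. Gpnmb, a membrane glycoprotein linked to lysosomes, was at 777, 795 and 720 CPM without RA and at 1423, 1572 and 1414 CPM with it at day 14 (log2 0.94), with -0.40 at day 7. Ccdc80, a secreted matrix protein, changed by 0.84 and -0.07. Of the 34 lysosomal genes, 4 had a called difference between the days, and at day 7 the list had a median of 0.00 with 2 called higher. Cyp26b1 and Dhrs3 were called on both days, and neither passed the test of the difference (1.50 ± 1.52 and -0.21 ± 0.43). Akap12 and Itga3 went the other way, with rises of 3.50 and 2.09 at day 7 and of 2.40 and 0.86 at day 14.

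**Figure D5:**
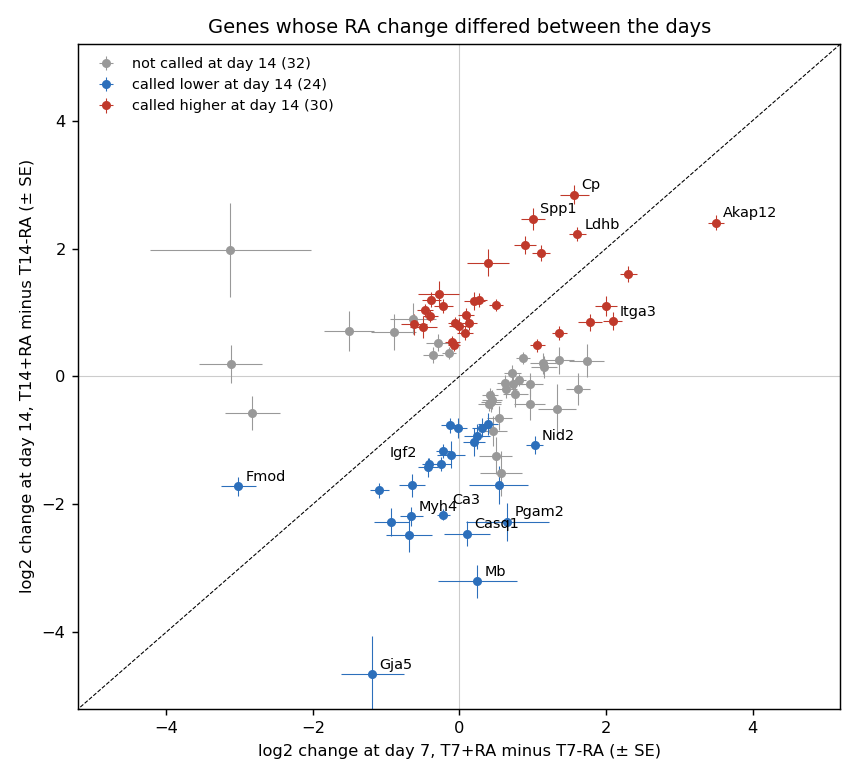
Log2 change with RA (± SE) at day 14 (vertical) against that at day 7 (horizontal) for the 86 genes whose change differed between the days at an adjusted p under 0.05. The dashed line marks equal change, red and blue points were called higher (30) or lower (24) at day 14 and grey points were not called there (32). The genes were chosen for a difference, so none lies on the line.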

How the data were processed

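RNA from 15 H9c2 cultures was sequenced as stranded mRNA libraries with paired reads, in 5 groups of 3 cultures that the paper calls biological replicates, so p-values measure the spread between these cultures. The authors mapped the reads with HISAT2 to build Rnor_6.0 and counted them with featureCounts, per the submitters' processing notes, and the deposited values are raw, unnormalized counts of each gene in each library, for genes with more than 20 counts over the 15 libraries. Tool versions, the annotation release and the strand setting are not given in the sources used here, so reads of overlapping, antisense or near-identical genes may be misassigned. The labels number the cell line field on from H9c2 in some samples, while all titles name H9c2, and groups were taken from the titles.

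The counts were fitted in edgeR 4.0.16 (R 4.3.3) with TMM factors, 1 mean per group over all 15 libraries and the robust quasi-likelihood test (common dispersion 0.00781). The contrasts were T14+RA minus T14-RA, called at an adjusted p under 0.001 (Benjamini-Hochberg over all genes), and its difference from the day 7 contrast, called at 0.05. Log2 changes are given with an SE computed back from the test, as the absolute log2 change over the square root of the F statistic. This SE is rough where a group is near 0 counts. Levels are TMM-scaled CPM. Counting intervals (95%, exact) and floors (3 counts over a group) cover no more than counting error, as no molecular identifiers were used. A fold against a floor takes the counts of the other group as exact, so it is no strict bound. Script statistics were tested on simulated data.

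The comparison and the 42 gene lists were chosen with earlier results of these data known, so no list is independent evidence. The number called in a list was not adjusted for the counts of its members. Genes were named by rule: the 10 largest changes each way with at least 30 counts and no overlap, the 5 lowest p each way, up to 4 called members of a list each way, list members where few were called, up to 8 genes with a called day difference, and genes that the study names. All other genes, such as Ryr1, Sln, Actn2, Des, Acta1, Itga3 and part of the filament genes, were chosen after their values were seen. Ryr2 and E2f1, which the study names, are not among the genes analysed here. Alternatives were limma-voom, limma-trend and limma 3.58.1 on quantile-normalized log2(count + 1), DESeq2 1.42.0, other scalings and filters, a replicate block, the day 14 libraries alone and each of their libraries left out. Promoter windows came from RefSeq tables.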

Additional observations from a re-analysis of the deposited data

Results flagged for a closer look

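For 86 genes the change with RA was not the same on both days by the test of the difference itself (edgeR, adjusted p under 0.05), and the genes named in the report that are among them are given here as the change at day 14 minus that at day 7, on the log2 scale, with no explanation weighed. Lower at day 14 than at day 7 were the changes of Mb (-3.45), Pgam2 (-2.93), Casq1 (-2.56), Ca3 (-1.94), Myh4 (-1.53), Mymk (-1.34), Klhl41 (-1.13), Myod1 (-1.04) and Mybph (-0.84) among muscle genes, and of Gja5 (-3.47), Nid2 (-2.10), Itga3 (-1.23), Akap12 (-1.10), Igf2 (-0.95), Eln (-0.95) and Ccnd1 (-0.87). Higher at day 14 were those of Igfbp5 (1.59), Scd (1.50), Spp1 (1.46), Pdk3 (1.39), Gpnmb (1.34), Clu (1.32), Fmod (1.30), Cp (1.27), Duox1 (1.16), Vldlr (0.93), Ccdc80 (0.90), Gstp1 (0.88), Lipa (0.81), Grn (0.69), Ldhb (0.62), Anxa1 (0.61) and Ctsd (0.56). For Fmod the fall with RA was the smaller one at day 14. The differences of Myod1, Mymk, Ldhb, Gja5, Pgam2, Anxa1, Fmod and Pdk3 did not pass once 1 or more of the day 14 libraries was left out. Groups of 3 libraries were not searched for single libraries far from the others.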

How the results depend on the processing

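The number of genes called at day 14 was 557. It was 157 with limma on quantile-normalized log2(count + 1) and 1291 at an adjusted p under 0.05, and lay between 376 and 473 with 1 day 14 library left out. The other alternatives gave 399 (DESeq2) to 628, and over all of these settings 46.5% to 53.8% of calls were higher. The genes whose change differed between the days numbered 86, but 22 with the quantile-normalized values, 25 at 0.001 and 56 to 85 with a library left out. With the replicate number as a block, 628 and 118 genes were called and all 557 calls of the report remained, but the correlations of same-numbered cultures were 0.00, 0.14 and 0.04 and no source says that the numbers pair them. Of the 144 called genes named in the report or above, 66 lost the call under an alternative, 49 of them only with the quantile-normalized values, a setting that called few genes in all, and 11 lost it with a library left out. Of these genes, limma-trend did not call Acta2, Actg2, Actn2, Cox8b, Dcn, Lum, Mmp2, Myl1, Ryr1 and Tnni1, DESeq2 did not call Acta2, Actg2, Dcn, Foxa1, Itgbl1, Lum, Sema7a and Spats2l, and limma-voom did not call Actg2 and Lum. Acta2 was also lost with library size alone as the scaling and with either filter. Directions turned for 5 genes, of which Col3a1 (0.0714, quantile-normalized) was called. The others were not called. Tnnc2 was at -0.138 quantile-normalized and at -0.0311 to 0.149 with a library left out, Des at -0.235 to 0.0861, Col1a1 at -0.00958 to 0.161 (0.00 quantile-normalized) and Ccnd1 at -0.142 to 0.0198 (-0.268 quantile-normalized). The causes were not tested. Depth limited the comparison, since 2894 genes had at most 53 counts over the 6 libraries.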

Other observations

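Other genes in no list, chosen after their values were seen, were called with any 1 day 14 library left out. Dclk1, a kinase bound to microtubules, was at 115, 142 and 118 CPM without RA and at 6.75, 9.43 and 7.25 CPM with it (15.9-fold lower). Megf10, an engulfment receptor also found on muscle stem cells, fell from 56.5, 30.1 and 45.7 CPM to 8.68, 4.71 and 9.06 CPM (5.82-fold). Il33, an alarm cytokine held in the nucleus, fell from 106, 106 and 94.8 CPM to 16.4, 29.9 and 25.4 CPM (4.47-fold), and Osr1, a zinc finger factor of connective tissue progenitors, 3.44-fold. These groups did not overlap. In the other direction, Sat1, the enzyme that acetylates polyamines, rose from 187, 168 and 168 CPM to 623, 673 and 600 CPM (3.60-fold). Abca1, the exporter of cholesterol, rose 3.38-fold, and Bcl2l1, an inhibitor of apoptosis, 2.73-fold.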
